A study of Mus musculus with 10 samples.

Results

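Integrin subunit genes were followed across 5 sorted mammary cell populations. They were chosen as the probe sets whose single gene symbol was Itga or Itgb with a digit directly after it, which gave 7 subunit genes on 12 probe sets, out of 2932 tested features on 3663 probe sets. The 4 alpha subunit genes were Itga1, Itga3, Itga6 and Itga9, and the 3 beta subunit genes were Itgb1, Itgb3 and Itgb8. An 8th symbol and a 13th probe set fitted the letters, namely Itgb3bp, a gene named for a protein that binds the β3 tail. It encodes no subunit and was kept apart. The probe sets were 1439713_at and 1455251_at for Itga1, 1455158_at for Itga3, 1422444_at and 1422445_at for Itga6, 1450029_s_at and 1460285_at for Itga9, 1426918_at, 1427771_x_at and 1452545_a_at for Itgb1, 1455257_at for Itgb3 and 1436223_at for Itgb8. Of a fixed list of 7 other integrin genes, only Itgav, whose name has a letter in place of the digit, had values in the deposited table. Itgb4, the gene of β4, was not among the genes with values either.

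RNA had been labelled from the 3' end and hybridised to Affymetrix mouse genome arrays, with 10 arrays in all and 2 per population. The cells came from glands of virgin female FVB mice aged 6 to 8 weeks, and the labels name no transgene and no treatment of the mice. Blood, endothelial and stromal cells were gated out with antibodies to CD45, CD31, Ter119 and CD140α, and the rest were double sorted on CD24, CD49f and Thy-1. The luminal populations were CD24highCD49fmed, which the labels call luminal progenitor cells, and CD24medCD49f-/low, called differentiated luminal cells. The basal populations were CD24medCD49fmed, called myoepithelial cells, and the Thy-1+ and Thy-1- fractions of the CD24medCD49fhigh gate, called stem cells and progenitor cells. Each population is a surface gate on whole glands and can hold more than 1 cell type. The text of the study names its myoepithelial cells CD24lowCD49fmed, also for the basal populations of its FVB arrays, and the name CD24medCD49fmed is that of the labels.

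Integrins are receptors for the extracellular matrix and for some cell surface proteins. Each receptor is a pair of 1 alpha and 1 beta subunit, and the pairing sets the ligand. In the mammary gland, basal cells sit directly on the basement membrane, a sheet of laminins and collagen IV, while luminal cells line the duct above them. CD49f is the protein of Itga6, so the gates selected cells on the product of 1 of the 7 genes. CD29, the protein of Itgb1, and CD61, the protein of Itgb3, are used to sort mammary cells in other work. The study also stained luminal cells for CD61 and speaks of luminal progenitor cells that carry it.

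The values are log2 intensities centred to a mean of 0 over the 10 arrays for each probe set. They show by how much an array stands above or below the others, and neither the abundance of a transcript nor the order of abundance between genes can be read from them. Where a gene had several probe sets, their mean was taken. Every array measures a mixture of sorted cells, so fewer cells of a type and less RNA per cell cannot be told apart.

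RefSeq promoter windows, each with the 250 bases before and the 50 after a transcription start (build GRCm38.p6), were held for 5 of the 7 genes. Windows of 3 of them are shown, those of an alpha and a beta subunit that were both lower in luminal cells and that of Itgb8, which was not. Capitals mark matches, on either strand, to a GC box (GGGCGG), the letters TATAAA, an AP-1 motif (TGANTCA), a TEAD motif (GGAATG) or a SNAI E-box (CAGGTG).
Itga1, chr13:115101915-115102214, minus strand: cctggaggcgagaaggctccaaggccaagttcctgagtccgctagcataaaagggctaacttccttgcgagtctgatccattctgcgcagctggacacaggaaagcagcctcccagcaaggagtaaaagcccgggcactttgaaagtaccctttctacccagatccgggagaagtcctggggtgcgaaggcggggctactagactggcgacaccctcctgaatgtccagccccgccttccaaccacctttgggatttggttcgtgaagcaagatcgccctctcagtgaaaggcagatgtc
Itgb1, chr8:128685404-128685703, plus strand: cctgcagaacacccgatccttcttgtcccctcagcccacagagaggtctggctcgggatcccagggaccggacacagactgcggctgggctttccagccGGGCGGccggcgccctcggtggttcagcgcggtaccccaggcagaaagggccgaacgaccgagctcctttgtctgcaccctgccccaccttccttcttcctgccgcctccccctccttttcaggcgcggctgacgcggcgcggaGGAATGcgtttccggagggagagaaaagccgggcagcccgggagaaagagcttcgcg
Itgb8, chr12:119238227-119238526, minus strand: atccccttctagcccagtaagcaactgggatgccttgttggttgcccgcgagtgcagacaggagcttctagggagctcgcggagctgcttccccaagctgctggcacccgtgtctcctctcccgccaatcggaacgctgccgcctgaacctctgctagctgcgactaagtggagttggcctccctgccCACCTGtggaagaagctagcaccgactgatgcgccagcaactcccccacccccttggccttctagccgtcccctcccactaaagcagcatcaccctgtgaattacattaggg
The Itga1 window held 0 matches, the Itgb1 window 1 GC box and 1 TEAD motif, and the Itgb8 window 1 SNAI E-box. Among 32851 promoter windows of the same length, 35.7% held the GC box, 13.6% TATAAA, 7.81% the AP-1 motif, 14.7% the TEAD motif and 20.2% the SNAI E-box. No matches overlapped, and a match describes letters only, not binding. Of the windows not shown, 1 for Itga3 held 3 GC boxes and 1 SNAI E-box, the other for Itga3 held 1 GC box and 1 AP-1 motif, and the window for Itga9 held 1 AP-1 motif and 2 SNAI E-boxes. The transcription start of that last window lies 104983 bases inside the outermost start of Itga9. That of the Itga3 window with the AP-1 motif lies 7646 bases inside the outermost start of Itga3.

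Before the comparisons, the arrays were checked against each other and against markers. CD24medCD49f-/low replicate 1 correlated across probe sets at 0.364 with its partner and at 0.761 with CD24highCD49fmed replicate 1, and its median of -0.43 was the lowest of the 10. Thy-1+CD24medCD49fhigh replicate 1 correlated at 0.449 with its partner and at 0.836 with CD24medCD49fmed replicate 2. Results that rest on these arrays are given with and without them. A correlation between partners belongs to both and does not say which of them departs. Thy-1+CD24medCD49fhigh replicate 2 had the lowest SD of the 10 arrays, 0.51. Luminal and basal arrays were separated by their markers, since the median of 12 luminal marker genes was 0.58 to 1.65 in the 4 luminal arrays and -1.86 to 0.13 in the 6 basal arrays, and the median of 12 basal marker genes was -2.91 to -1.33 in the luminal arrays and 0.94 to 1.83 in the basal arrays. The basal values nearest to the luminal ones, 0.13 and 0.94, were both those of Thy-1+CD24medCD49fhigh replicate 2. Of the 12 luminal markers, 9 were called as higher than in basal cells in each luminal population (44.0% of all features in CD24highCD49fmed and 18.3% in CD24medCD49f-/low cells). Krt19, Cldn3 and Cldn4 were called in neither, with Krt19 at 0.63 and 0.64. Between the luminal populations limma called 0 of the 12 luminal markers, where it called 0.205% of all features, so this count does not say how alike the gates are. Thy1, the gene of the sorted Thy-1 protein, differed by 1.74 in Thy-1+ minus Thy-1- cells but was not called (adjusted p = 0.999).

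The first question was how integrin genes of each luminal population compared with those of the basal populations. In CD24highCD49fmed cells, 5 of the 7 genes (Itga1, Itga3, Itga6, Itga9 and Itgb1) were lower than in basal cells, 1 (Itgb8) was higher, and Itgb3 did not pass the test. In CD24medCD49f-/low cells, 6 of the 7 were lower and Itgb8 did not pass. The largest fall was that of Itga9, which was 7.61-fold lower in CD24highCD49fmed cells, followed by Itga6, which was 4.67-fold lower there and 4.84-fold lower in CD24medCD49f-/low cells. Itgb8 was 2.65-fold higher in CD24highCD49fmed cells.

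The tests came from 1 limma fit on all 10 arrays, and a call required an adjusted p under 0.05 (Benjamini-Hochberg, over the 2932 features). These counts have to be read against how often any feature was called. In CD24highCD49fmed minus basal cells 74.7% of features were called, 30.6% as lower and 44.0% as higher. In CD24medCD49f-/low minus basal cells 45.8% were called, 27.5% as lower and 18.3% as higher. The table held only probe sets that differed at least 4-fold between some arrays, and these are shares of that table. The median difference of the 7 integrin genes was -1.31 in CD24highCD49fmed minus basal cells, against 0.41 over all features, and -1.60 in CD24medCD49f-/low minus basal cells, against -0.17 over all features. The integrin medians thus lay below those of the table in both comparisons. Setting every array median to 0 moved the median of all features to 0.31 in CD24highCD49fmed and 0.11 in CD24medCD49f-/low minus basal cells. It also moved the share of lower among the called features of CD24medCD49f-/low cells, from 60.1% in the deposited values to 43.1% (43.2% with quantile normalisation), while the same 6 integrin genes were called as lower there. The labels do not say whether the 2 arrays of a population had different animals behind them, so a p-value speaks of the spread among these samples alone.

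**Figure D1:**
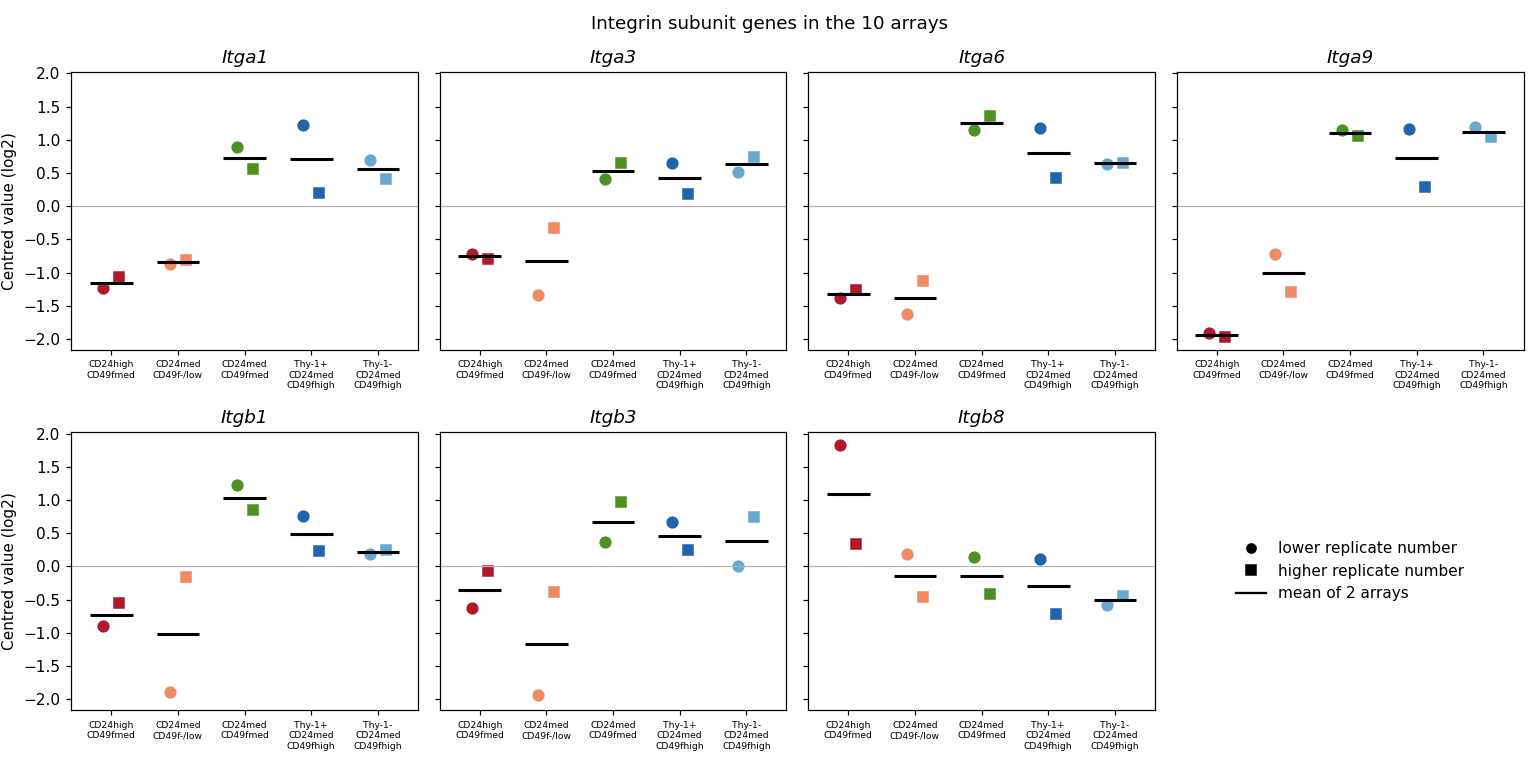
Centred log2 values (y axis) of the 7 integrin subunit genes in the 10 arrays, by population (x axis), with the mean of 2 arrays as a line; circles are the lower and squares the higher replicate number. Itga1, Itga3, Itga6, Itga9, Itgb1 and Itgb3 lie lower in all 4 luminal arrays than in any of the 6 basal arrays, and Itgb8 is highest in CD24highCD49fmed replicate 1, at 1.83.

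Among the alpha subunits, Itga6 and Itga3 encode laminin receptors. The α6 chain pairs with β1 or with β4, and in the second pairing it anchors basal cells through hemidesmosomes. Itga6 stood at -1.39 and -1.26 in CD24highCD49fmed cells and at -1.63 and -1.12 in CD24medCD49f-/low cells. It stood at 1.15 and 1.36 in CD24medCD49fmed cells, 1.17 and 0.43 in Thy-1+CD24medCD49fhigh cells and 0.64 and 0.65 in Thy-1-CD24medCD49fhigh cells. All luminal arrays were below all basal arrays, the nearest of them at -1.12 and 0.43. CD24highCD49fmed and Thy-1-CD24medCD49fhigh, neighbours in order of mean, were 1.90 apart at their nearest arrays. Itga6 differed from basal cells by -2.22 ± 0.41 (log2 difference ± SE, adjusted p = 0.000163) in CD24highCD49fmed cells and by -2.28 ± 0.41 (adjusted p = 0.00024) in CD24medCD49f-/low cells. The gates used its protein, so the test of Itga6 is not independent of how the cells were chosen. How far the gating shaped this difference was not tested.

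The order of Itga6 transcript did not follow the order of the CD49f gates. CD24highCD49fmed, a CD49f-medium gate, averaged -1.32 ± 0.09 (SD, n = 2), next to -1.38 ± 0.36 in the CD24medCD49f-/low gate. CD24medCD49fmed, also a CD49f-medium gate, had the highest mean of 1.25 ± 0.15, against 0.80 ± 0.53 in Thy-1+CD24medCD49fhigh and 0.64 ± 0.01 in Thy-1-CD24medCD49fhigh cells. Neither step passed a test. CD24highCD49fmed minus CD24medCD49f-/low cells gave 0.05 (95% interval -0.99 to 1.09), and CD24medCD49fmed minus CD24medCD49fhigh cells gave 0.53 (95% interval -0.37 to 1.43), so differences of these sizes in either gate could not be resolved with 2 arrays per population.

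Itga3, the alpha chain of the α3β1 laminin receptor, showed a smaller luminal fall. It was at -0.71 and -0.79 in CD24highCD49fmed cells and at -1.34 and -0.32 in CD24medCD49f-/low cells. The basal arrays held 0.41 and 0.65 for CD24medCD49fmed, 0.66 and 0.19 for Thy-1+CD24medCD49fhigh and 0.52 and 0.75 for Thy-1-CD24medCD49fhigh. The groups did not overlap, but the CD24medCD49f-/low arrays were over 1 log2 unit apart. The difference from basal cells was -1.28 ± 0.42 (adjusted p = 0.0101) in CD24highCD49fmed cells and -1.36 ± 0.42 (adjusted p = 0.0131) in CD24medCD49f-/low cells.

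Itga1 encodes the alpha chain of α1β1, a receptor for collagens that includes collagen IV. Its values were -1.24 and -1.07 in CD24highCD49fmed cells, -0.86 and -0.81 in CD24medCD49f-/low cells, 0.90 and 0.56 in CD24medCD49fmed cells, 1.22 and 0.20 in Thy-1+CD24medCD49fhigh cells and 0.70 and 0.41 in Thy-1-CD24medCD49fhigh cells. Within each luminal population the arrays lay close together, and every basal array lay above them. Itga1 differed from basal cells by -1.82 ± 0.42 in CD24highCD49fmed cells (3.52-fold, adjusted p = 0.00107) and by -1.50 ± 0.42 in CD24medCD49f-/low cells (2.83-fold, adjusted p = 0.0072).

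Itga9 encodes the alpha chain of α9β1, which binds tenascin C and other matrix and cell surface ligands. It stood at -1.92 and -1.97 in CD24highCD49fmed cells, lower than in any other population. The CD24medCD49f-/low arrays held -0.72 and -1.29. The basal arrays held 1.15 and 1.06 for CD24medCD49fmed, 1.17 and 0.28 for Thy-1+CD24medCD49fhigh and 1.20 and 1.05 for Thy-1-CD24medCD49fhigh. Only Thy-1+CD24medCD49fhigh replicate 2 departed from the other basal arrays. The difference from basal cells was -2.93 ± 0.42 in CD24highCD49fmed cells (adjusted p = 1.04e-05) and -1.99 ± 0.42 in CD24medCD49f-/low cells (adjusted p = 0.000839).

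Among the beta subunits, Itgb1 encodes the shared partner of α1, α3, α9 and, in one of its pairings, α6. It stood at -0.90 and -0.55 in CD24highCD49fmed cells and at -1.88 and -0.16 in CD24medCD49f-/low cells. It stood at 1.22 and 0.85 in CD24medCD49fmed cells, 0.76 and 0.23 in Thy-1+CD24medCD49fhigh cells and 0.19 and 0.24 in Thy-1-CD24medCD49fhigh cells. The luminal arrays were again all below the basal ones, with CD24medCD49f-/low replicate 1 far below its partner. Itgb1 differed from basal cells by -1.31 ± 0.46 in CD24highCD49fmed cells (adjusted p = 0.0147) and by -1.60 ± 0.46 in CD24medCD49f-/low cells (adjusted p = 0.00838). In that low array its 3 probe sets read -2.58, -0.93 and -2.14, against -0.10, -0.20 and -0.17 in the partner array. Tested alone, the second of them, 1427771_x_at, differed by -0.97 in CD24medCD49f-/low minus basal cells and was not called (adjusted p = 0.0537).

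Itgb3 encodes β3, which pairs with αv in a receptor for vitronectin and fibronectin. It was at -0.63 and -0.07 in CD24highCD49fmed cells and at -1.94 and -0.39 in CD24medCD49f-/low cells, against 0.38 and 0.96 in CD24medCD49fmed, 0.67 and 0.25 in Thy-1+CD24medCD49fhigh and 0.01 and 0.75 in Thy-1-CD24medCD49fhigh cells. The luminal and basal arrays did not overlap, though the nearest were close, -0.07 beside 0.01. The difference from basal cells was -0.85 ± 0.46 in CD24highCD49fmed cells, which was not called (adjusted p = 0.099), and -1.66 ± 0.46 in CD24medCD49f-/low cells, which was (adjusted p = 0.00712). With array medians set to 0 the first was -0.95 and was called (adjusted p = 0.0464), and with only the compared arrays in the fit it was called at the same difference (adjusted p = 0.0376), as it was with either CD24medCD49f-/low array left out.

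Itgb8 encodes β8, which pairs with αv and is known for releasing TGF-β from its latent complex. It ran against the other 6 genes. CD24highCD49fmed cells held 1.83 and 0.34, CD24medCD49f-/low cells 0.18 and -0.47, CD24medCD49fmed cells 0.14 and -0.42, Thy-1+CD24medCD49fhigh cells 0.12 and -0.71 and Thy-1-CD24medCD49fhigh cells -0.58 and -0.44. Both CD24highCD49fmed arrays were above every other array, but they were 1.49 apart, and the nearer of them was 0.16 above the next. Itgb8 was higher by 1.40 ± 0.46 in CD24highCD49fmed than in basal cells (adjusted p = 0.0101), and without CD24highCD49fmed replicate 1 the difference was 0.66 (adjusted p = 0.377). In CD24medCD49f-/low minus basal cells it was 0.17 ± 0.46 (adjusted p = 0.738).

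**Figure D2:**
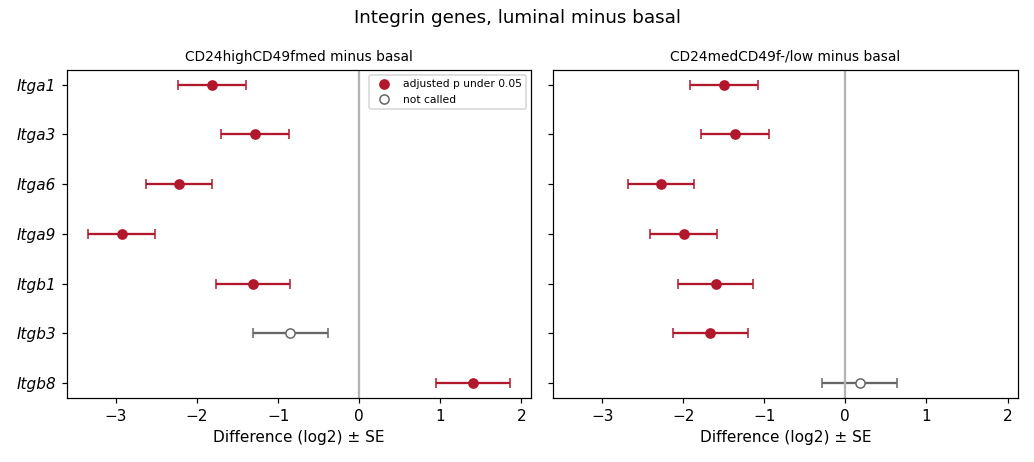
Log2 difference (x axis) of each luminal population minus the mean of the 3 basal populations for the 7 integrin genes (y axis), with the SE as bars; filled points were called at an adjusted p under 0.05. Itga9 lies farthest left in CD24highCD49fmed cells, at -2.93, and Itgb8 is the 1 gene to the right of 0 in both panels, at 1.40 and 0.17.

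The arrays were also compared without a model. All arrays of a luminal population lay below all 6 basal arrays for 6 of the 7 genes, in CD24highCD49fmed cells (37.4% of all features did) and in CD24medCD49f-/low cells (28.4% of all features did). Itgb8 was the 1 gene with both CD24highCD49fmed arrays above all basal arrays, which 44.5% of features were, and 0 integrin genes were above in CD24medCD49f-/low cells, against 24.1% of features.

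The array CD24medCD49f-/low replicate 1 carried 3 of the calls in that population. Without it, Itga3 differed from basal cells by -0.85 (adjusted p = 0.163), Itgb1 by -0.74 (adjusted p = 0.234) and Itgb3 by -0.89 (adjusted p = 0.169), and Itga1, Itga6 and Itga9 were still called. Without CD24highCD49fmed replicate 1, Itga3 differed from basal cells by -1.32, Itgb1 by -1.14 and Itgb8 by 0.66 in CD24highCD49fmed cells. Without CD24highCD49fmed replicate 2, Itga3 differed by -1.24 and Itgb1 by -1.48. Each of these fits left 1 array in that population. These differences were not called, and without replicate 1 calls also fell over all features. Itga1, Itga6 and Itga9 were lower and called in both luminal populations whichever of the 10 arrays was left out.

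The next question was whether the luminal populations differed from each other in integrin genes. In CD24highCD49fmed minus CD24medCD49f-/low cells, limma called 0 of the 7 genes, and 1, Itgb8, had an unadjusted p under 0.05. Calls were rare here in general, 0.205% of features (6 of 2932, with 451 at an unadjusted p under 0.05). Itgb8 differed by 1.23 ± 0.56 (2.34-fold, adjusted p = 0.286), with CD24highCD49fmed cells at 1.83 and 0.34 and CD24medCD49f-/low cells at 0.18 and -0.47. Itga9 differed by -0.94 ± 0.51 (adjusted p = 0.366), and here the arrays of the gates were apart by 0.62, slightly more than the 0.57 between the CD24medCD49f-/low arrays. Itgb3 differed by 0.81 ± 0.57 (adjusted p = 0.458). The other 4 genes differed by -0.31 to 0.29. The signs of Itga3, Itga6 and Itgb1 turned when array medians were set to 0, which moved the median of all features to -0.031, against 0.35 in the deposited values.

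Within the basal compartment, CD24medCD49fmed was set against the mean of both CD24medCD49fhigh fractions. limma called 0 of the 7 genes and 0 had an unadjusted p under 0.05, while 0.0341% of features (1 of 2932) were called and 52 had an unadjusted p under 0.05. Itgb1 and Itga6 had the largest differences, 0.68 ± 0.49 and 0.53 ± 0.43, both with an adjusted p of 1. Itgb1 was above both fractions in both CD24medCD49fmed arrays, by a gap of 0.09 that was within the spread of the arrays. The other 5 genes differed by 0.0018 to 0.26, and the sign of Itga3, at 0.0018, turned with array medians set to 0 (-0.058) and with quantile normalisation (-0.060).

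The Thy-1+ fraction of the CD24medCD49fhigh gate was then compared with the Thy-1- fraction. limma again called 0 of the 7 genes and 0 had an unadjusted p under 0.05, beside 0.0682% of features called (2 of 2932, the collagen gene Col3a1 and the transporter gene Abca8a, both higher in the Thy-1+ fraction) and 74 at an unadjusted p under 0.05. Itga9 had the largest difference, -0.40 ± 0.51, and the rest ran from -0.21 to 0.28, with an adjusted p of 0.999. Setting array medians to 0 turned the signs of Itga1, Itga6 and Itgb3, and quantile normalisation those of Itga1, Itgb3 and Itgb8. The 95% intervals all covered 0 and their ends lay between -1.45 and 1.44.

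**Figure D3:**
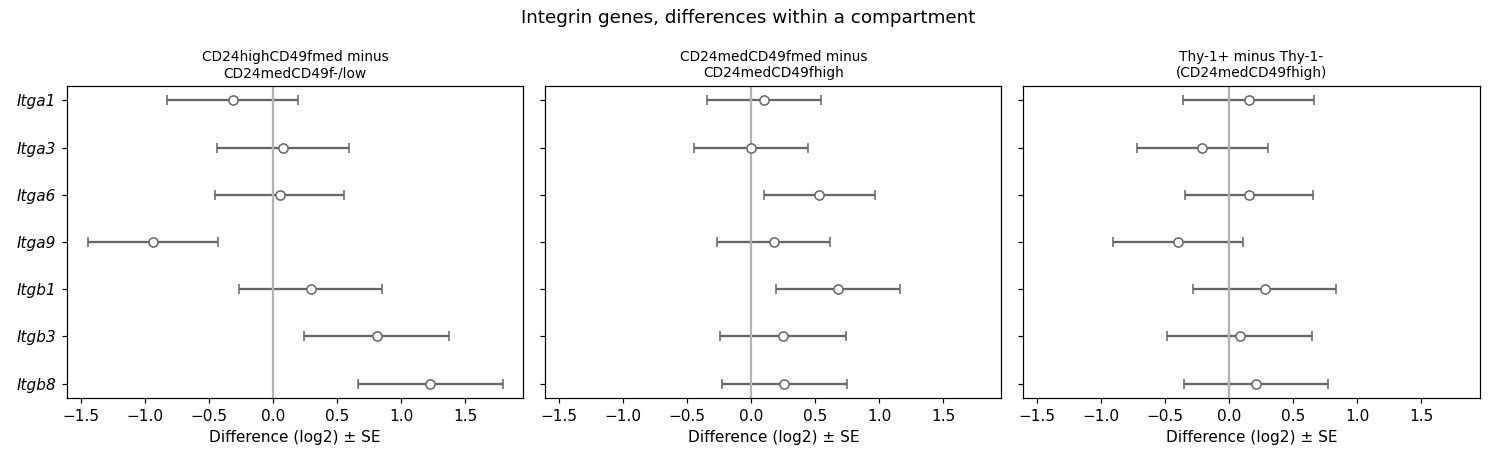
Log2 difference (x axis) of the 7 integrin genes (y axis) in the 3 comparisons within a compartment, with the SE as bars; none was called. Itgb8, at 1.23 in CD24highCD49fmed minus CD24medCD49f-/low cells, and Itga9, at -0.94 there, lie farthest from 0.

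Ordered by mean, the populations fell into similar sequences for the 6 lower genes, all with the 3 basal populations first. CD24medCD49fmed led for Itga1, Itga6, Itgb1 and Itgb3, and Thy-1-CD24medCD49fhigh led for Itga3 and Itga9, but in no gene were neighbouring basal populations farther apart than the arrays within them. Between the lowest basal and the highest luminal population in this order, the gap exceeded the spread for Itga1, Itga3, Itga6, Itga9 and Itgb1 and not for Itgb3. For Itga3 and Itgb1 that luminal population was CD24highCD49fmed, and the CD24medCD49f-/low arrays of these genes were farther apart, with ranges of 1.02 and 1.73. CD24medCD49f-/low stood above CD24highCD49fmed beyond the spread for Itga1, by a gap of 0.21, and for Itga9.

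Between genes, the 15 pairs of the 6 lower genes had Pearson correlations of 0.62 to 0.964 over the 10 arrays, with a median of 0.898. Itga1 was closest to Itga9 (0.964) and to Itga6 (0.961). The 6 pairs with Itgb8 ran from -0.583 to -0.379. All of these pairs share the same 10 arrays and the same luminal and basal split, so these are descriptions. Probe sets of 1 gene agreed at 0.901 for Itga1, 0.954 for Itga6, 0.99 for Itga9 and 0.895 to 0.968 for the 3 of Itgb1. Only probe sets that differed at least 4-fold between some arrays had values, so a flat probe set of these genes could not appear among them.

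The genes outside the family whose values followed each subunit most closely over the 10 arrays were listed in the same way. Itga1 lay closest to Ptpre (0.993), Axl (0.992) and 6330403K07Rik (0.992). Itga3 lay closest to Stox2 (0.985), Crtap (0.981) and Plcg1 (0.979). Itga6 lay closest to Lix1l (0.996), Rflnb (0.993) and Col16a1 (0.991). These are descriptive neighbours in a table where many features split the compartments. Itga9 lay closest to Niban1 (0.992), Lrrc8c (0.992) and Chst15 (0.991). Itgb1 lay closest to Purb (0.987), Nhsl1 (0.984) and Spred1 (0.975). Itgb3 lay closest to Jmy (0.969), Trio (0.965) and Sh3kbp1 (0.962), and Itgb8 to Plscr1 (0.949), Gt(ROSA)26Sor (0.944) and Klhl7 (0.941).

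Integrins work with matrix ligands outside the cell and adaptor proteins inside it, and lists of these were examined beside the subunits. Some genes stand in more than 1 list. Each count is set beside the share of all 2932 features called in that direction. The laminin and collagen IV list holds ligands of the α1, α3 and α6 receptors. It also holds Nid1 and Agrn, which are neither laminin nor collagen IV chains and are counted below. Of 12 in the table, 11 were lower in CD24highCD49fmed cells (median of the list -2.59, with 30.6% of all features lower) and 11 in CD24medCD49f-/low cells (median -2.16, with 27.5% of all features lower), compared with basal cells. Col4a1 and Col4a2, the main collagen IV chains, differed from basal cells by -4.80 and -4.59 in CD24highCD49fmed cells and by -3.55 and -3.85 in CD24medCD49f-/low cells. Lama1, a laminin alpha chain, differed from basal cells by -3.68 and -3.20 in CD24highCD49fmed and CD24medCD49f-/low cells. Lama5 was the 1 member not called, at -0.73 in CD24highCD49fmed and -0.24 in CD24medCD49f-/low cells.

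Hemidesmosome genes, which join α6β4 to the keratin filaments, were lower for 7 of 7 in CD24highCD49fmed cells (median -3.06, beside 30.6% of all features) and 6 of 7 in CD24medCD49f-/low cells (median -3.13, beside 27.5%). Krt14 and Krt5, the basal keratins, differed from basal cells by -4.98 each in CD24highCD49fmed cells and by -3.99 and -3.13 in CD24medCD49f-/low cells. Col17a1, a transmembrane collagen of the hemidesmosome, differed from basal cells by -4.21 and -3.39 in CD24highCD49fmed and CD24medCD49f-/low cells. The laminin chain genes Lama3 and Lamb3, which belong to a ligand of α6β4, are in this list too. Plec, the plakin plectin, was not called in CD24medCD49f-/low cells, at -0.68 (adjusted p = 0.259).

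The adhesion complex list held 28 adaptor and actin-linking genes. Of these, 21 were lower and 4 higher in CD24highCD49fmed cells (median -1.74), where 30.6% of all features were lower and 44.0% higher. In CD24medCD49f-/low cells 19 were lower and 3 higher (median -1.44), where 27.5% of all features were lower and 18.3% higher. The largest falls in CD24highCD49fmed cells were those of Tgfb1i1, also called Hic-5, a paxillin relative, at -4.53, of the filamin gene Flna, at -3.58, and of Tns4, a tensin, at -3.80. Ilk, the integrin-linked kinase, differed from basal cells by -1.75 and -1.45 in CD24highCD49fmed and CD24medCD49f-/low cells, and Tln1, the talin that binds beta tails, by -1.88 and -2.04. Vcl, vinculin, differed from basal cells by -2.34 and -1.56 in these populations. The higher members were Ldb3, Sorbs2, Dock5 and Enah in CD24highCD49fmed cells, by 2.02, 1.93, 1.92 and 1.70, and Sorbs2, Dock5 and Enah were also higher in CD24medCD49f-/low cells. Fewer members were called in CD24medCD49f-/low cells without their replicate 1, also with Thy-1+CD24medCD49fhigh replicate 1 left out as well. These fits left 1 array in CD24medCD49f-/low, and calls over all features there also moved with 1 array left out in turn.

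Other matrix ligands were mixed. Of 21 in the table, 15 were lower and 4 higher in CD24highCD49fmed cells (30.6% and 44.0% of all features), and 13 lower and 3 higher in CD24medCD49f-/low cells (27.5% and 18.3% of all features, so that the higher count is near the share of the table). Reln, Postn and Fbln2 differed from basal cells by -4.98, -4.93 and -4.27 in CD24highCD49fmed cells. The fibrinogen gene Fgg was higher by 3.02 and 3.01 in CD24highCD49fmed and CD24medCD49f-/low cells, the collagen VI gene Col6a3 by 2.65 and 1.80, and Npnt, nephronectin, a ligand of α8β1, by 1.70 in CD24highCD49fmed cells. Among 7 cell surface ligands, 5 were lower and 2 higher in CD24highCD49fmed cells. In CD24medCD49f-/low cells 2 were lower and 1 higher, this second pair of counts being near these shares. Fewer were called in CD24highCD49fmed cells without their replicate 1, and calls over all features fell there as well. Vcam1, a ligand of α4β1 and α9β1, differed from basal cells by -1.93 and -1.90 in CD24highCD49fmed and CD24medCD49f-/low cells, and Cdh1, E-cadherin, was higher by 1.49 and 1.24. Thy1, the sorted Thy-1 gene and a ligand of β3 integrins, differed from basal cells by -1.62 in CD24highCD49fmed cells (adjusted p = 0.00664) and was not called in CD24medCD49f-/low cells (-1.02, adjusted p = 0.09).

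Tetraspanins and other lateral partners were called about as often as the table as a whole. Of 9, 3 were higher and 4 lower in CD24highCD49fmed cells (44.0% and 30.6% of all features). In CD24medCD49f-/low cells 2 were higher and 3 lower (18.3% and 27.5% of all features). The number called in CD24medCD49f-/low cells moved with 1 array left out in turn and with array medians set to 0. Calls over all features there also moved with 1 array left out in turn. Tspan8 was higher by 2.64 and 1.77, and Tspan2 differed from basal cells by -1.64 and -2.54, in CD24highCD49fmed and CD24medCD49f-/low cells. The only called member of all these lists between the luminal populations was Tgfb1i1, with CD24highCD49fmed minus CD24medCD49f-/low cells at -2.89 (adjusted p = 0.0179), and between the Thy-1 fractions it was Col3a1.

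**Figure D4:**
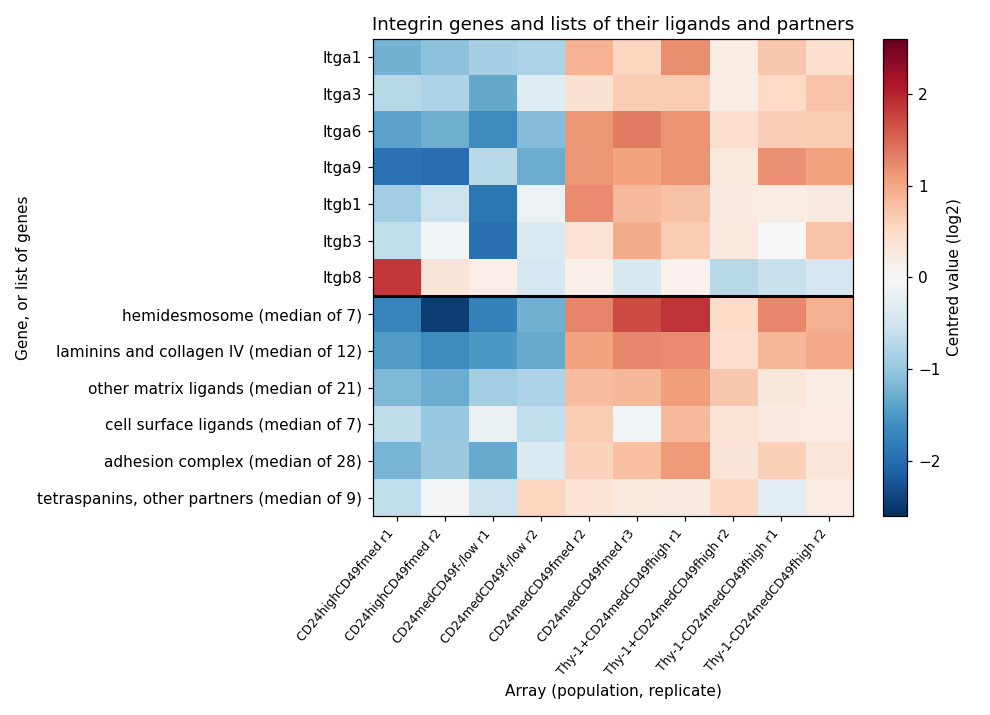
Centred log2 values (colour) of the 7 integrin genes, above the line, and of the median of each list of ligands and partners, below it, in the 10 arrays (x axis, population and replicate). The 4 luminal arrays on the left lie below 0 for 6 integrin genes and for every list but that of tetraspanins and other partners. Some lie only slightly below, such as Itgb3 at -0.07 in CD24highCD49fmed replicate 2. Itgb8 is red in CD24highCD49fmed replicate 1.

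Markers of other cell types that a gate could hold were examined too. Of the fibroblast markers, Col1a1, Col1a2, Col3a1, Fbln1 and Fn1 also stand among the other matrix ligands above, so these 2 lists are not separate observations. Of 7 fibroblast marker genes, 7 were lower in CD24highCD49fmed cells (30.6% of all features) and 4 in CD24medCD49f-/low cells (27.5% of all features) than in basal cells, and the list median per array was -1.17 and -1.30 in CD24highCD49fmed, -0.90 and -0.73 in CD24medCD49f-/low, 0.80 and 0.80 in CD24medCD49fmed, 1.53 and 1.10 in Thy-1+CD24medCD49fhigh and -0.07 and -0.11 in Thy-1-CD24medCD49fhigh cells. Pericyte markers (7 in the table) were lower for 4 in CD24highCD49fmed and 2 in CD24medCD49f-/low cells, the second count being near the share of the table, and their list medians overlapped between luminal arrays (-0.81 to -0.23) and basal arrays (-0.41 to 1.04). Of 3 adipocyte markers, 2 were lower and 1 higher in CD24highCD49fmed cells (30.6% and 44.0% of all features), and 1 was lower in CD24medCD49f-/low cells (27.5%). Schwann cell markers (6 in the table) were lower for 5 in CD24highCD49fmed cells (30.6% of all features) and 3 in CD24medCD49f-/low cells (27.5%). With a CD24highCD49fmed array left out, fewer fibroblast, pericyte and Schwann cell markers were called there. Calls over all features fell as well without replicate 1. The pericyte count of CD24medCD49f-/low cells also moved with 1 array left out. The fibroblast and Schwann cell medians were lower in every luminal array than in every basal array, as were 6 integrin genes, and their part in the integrin differences was not tested. Between the Thy-1 fractions, the pericyte medians were 0.73 and 1.04 in Thy-1+ and -0.05 and -0.41 in Thy-1- arrays. Of leukocyte markers, Lcp1 alone was in the table, higher by 1.92 and 1.60 in CD24highCD49fmed and CD24medCD49f-/low cells, and of the endothelial and platelet lists 0 genes were.

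Of the remaining integrin-named genes, Itgav, the αv chain that pairs with β3 and β8, differed from basal cells by -1.30 ± 0.44 in CD24highCD49fmed cells (adjusted p = 0.013) and by -1.44 ± 0.44 in CD24medCD49f-/low cells (adjusted p = 0.0133). It kept its size but was not called in CD24highCD49fmed cells without their replicate 1 (-1.27, adjusted p = 0.103) or replicate 2 (-1.33, adjusted p = 0.0787), nor was it called in CD24medCD49f-/low cells without replicate 1 (-0.75, adjusted p = 0.235). Itgb3bp was higher by 1.69 ± 0.42 in CD24highCD49fmed cells (adjusted p = 0.00171), and in CD24medCD49f-/low cells it was at 0.66 ± 0.42 (adjusted p = 0.177).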

How the data were processed

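RNA of 5 sorted mammary populations of FVB mice was measured on 10 arrays. As the labels and methods state, the authors normalised the arrays together (RMA, with GCRMA also named in the submitters' processing notes, neither with a version), kept probe sets over a minimum level that differed at least 4-fold between some arrays, and deposited log2 values centred to a mean of 0 per probe set. The smallest range of a probe set was 2.00 and the largest absolute mean 3e-07. No depth or signal over background can be read, and the number of arrays limits precision.

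Symbols came from the platform annotation: 3291 probe sets had 1 symbol, 75 several and 297 none. Probe sets of a gene were averaged, which gave 2932 features (2560 named). A limma 3.58.1 model in R 4.3.3 (lmFit, eBayes) with 1 mean per population was fitted to all 10 arrays, with 5 residual and 16.5 prior degrees of freedom, and was tested on simulated data first. The 5 comparisons were two-sided. The rank products test of the study was not run, since it permutes ranks over genes. The genes named were all subunits, for each of them the 3 genes of highest Pearson correlation, and up to 4 called members per list with the largest difference, plus the sort genes. Members named beside these, among them Ilk, Tln1, Vcl, Lama5, Plec and Npnt, were chosen after their values were seen. The members, lists and tests were chosen with earlier results of these data known. As alternatives, every array median was set to 0, or values were quantile normalised, or the fit used robust variance moderation, the replicate number as a block, only the compared arrays, single probe sets or a minimum log2 difference of 1, or left out each array in turn. Leaving out both arrays taken to stand apart, CD24medCD49f-/low replicate 1 and Thy-1+CD24medCD49fhigh replicate 1, was added after seeing the data. No setting left out Thy-1+CD24medCD49fhigh replicate 2 together with another array.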

Additional observations from a re-analysis of the deposited data

How the results depend on the processing

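In CD24highCD49fmed minus basal cells 6 integrin genes were called, and 3 to 7 with 1 array left out, while the features called ranged from 1138 to 2403 (2189 with all arrays). In CD24medCD49f-/low minus basal cells 6 were called, 3 to 6 with 1 array left out and 3 without both arrays that stood apart. Itgb8, uncalled there, turned to -0.012 without both and ran from -0.15 to 0.50 with 1 array left out. Within compartments 0 integrin genes were called in every setting. The causes were not tested, and 2 arrays per population limit every value.

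The replicate block rests on numbers that nothing ties to a shared animal or day, and differences between replicates 2 and 1 correlated at -0.177 to 0.505 between populations, so the numbers were not taken as pairs. CD24medCD49fmed has replicates 2 and 3, and under the block its replicate 2 alone informs the comparisons. With the block 6 integrin genes were called in each luminal minus basal comparison, Itgb8 was -0.036 in CD24medCD49f-/low minus basal cells, Itga3 was -0.21 and Itgb3 -0.35 in CD24medCD49fmed minus CD24medCD49fhigh cells, and the features called within compartments were 33, 19 and 9 (luminal, CD24medCD49fmed and Thy-1 comparisons), against 6, 1 and 2 without it.

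Between the luminal populations, 15 features were called with array medians at 0, 0 with quantile normalisation, 0 with only the compared arrays, 11 with single probe sets, 247 without both arrays that stood apart, and 0 to 295 with 1 array left out (295 without CD24medCD49f-/low replicate 1). Uncalled genes changed sign there. Itga3 was -0.30 with medians at 0, -0.0086 after quantile normalisation and -0.43 without both arrays (-0.43 to 0.59 with 1 left out). Itga6 was -0.32, on probe set 1422444_at -0.40, and without both arrays -0.20 (-0.20 to 0.30). Itgb1 was -0.083, on probe set 1427771_x_at -0.11, and without both arrays -0.57 (-0.57 to 1.16).

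In CD24medCD49fmed minus CD24medCD49fhigh cells, 0 features were called after quantile normalisation, 3 without both arrays and 0 to 1 with 1 left out. Itga3 was -0.058 with medians at 0 and -0.060 after quantile normalisation, and Itga1 was -0.24 on probe set 1455251_at. With 1 array left out Itga1 ran from -0.16 to 0.35, Itga3 from -0.12 to 0.13, Itga9 from -0.045 to 0.40, Itgb3 from -0.045 to 0.54 and Itgb8 from -0.016 to 0.54.

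In Thy-1+ minus Thy-1- cells, 1 feature was called with medians at 0, after quantile normalisation and with single probe sets, 13 with only the compared arrays, 6 without both arrays and 0 to 11 with 1 left out. With medians at 0 Itga1 was -0.019, Itga6 -0.016 and Itgb3 -0.088. After quantile normalisation Itga1 was -0.12, Itgb3 -0.12 and Itgb8 -0.044. Without both arrays Itga1 was -0.36, Itga6 -0.22, Itgb3 -0.12 and Itgb8 -0.20, and Itga6 was -0.045 on probe set 1422445_at. With 1 array left out Itga1 ran from -0.36 to 0.66, Itga3 from -0.44 to 0.025, Itga6 from -0.22 to 0.53, Itga9 from -0.84 to 0.047, Itgb3 from -0.29 to 0.46 and Itgb8 from -0.20 to 0.62.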
